A study of Mus musculus with 24 samples.

Results

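Brain total RNA held transcripts of 10 genes that mark or accompany cortical and hippocampal interneurons, and these 10 of the 52636 gene identifiers are described here. Parvalbumin (Pvalb), somatostatin (Sst), vasoactive intestinal peptide (Vip), neuropeptide Y (Npy), cholecystokinin (Cck), Lhx6, calretinin (Calb2) and reelin (Reln) were taken by name as markers of interneuron classes. Nxph1 and Pthlh were selected on their values in these libraries, for being lower in the syn Cre-positive group. Their values in every comparison that includes a syn group are therefore given as a description, without a test.

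The series holds 24 libraries in 4 groups of 6, and the protocols describe 6 mice per group. It concerns EAAT2, the glutamate transporter encoded by Slc1a2, in a neuronal line (Syn) and an astrocytic line (GFAP), each with Cre-positive and Cre-negative brains. The syn Cre-positive mice are labelled EAAT2-/-, the gfap Cre-positive mice EAAT2Δ/+, and both Cre-negative groups EAAT2+/+. The Cre drivers are named only as Syn and GFAP, and no age, sex or brain region of the animals is recorded in the labels.

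Interneurons are GABA-releasing local neurons that restrain and time the firing of principal cells. Cells born in the medial ganglionic eminence of the embryo express the transcription factor Lhx6 and mature into parvalbumin and somatostatin classes. Those from the caudal ganglionic eminence include the Vip, calretinin and many reelin and cholecystokinin cells. Several of these genes are not limited to interneurons: Cck is also made by many excitatory neurons. Nxph1 encodes neurexophilin 1, a secreted glycoprotein that binds alpha-neurexins, and Pthlh encodes parathyroid hormone-related protein, a ligand of the receptor Pth1r. In bulk tissue, fewer cells of a type and less RNA per cell cannot be told apart.

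Gene counts summed to between 41596313 and 69652824 per library, and 19726 genes passed the filter on low counts, all 10 members among them. Members drew from 28 counts (the lowest Pthlh value) to 14345 (the highest Cck value) per library. Slc1a2, the targeted gene, had a mean of 3012 ± 213 CPM (TMM-scaled CPM, gene counts relative to library size; SD, n = 6) in syn Cre-positive and 3322 ± 98.7 CPM in syn Cre-negative libraries, and it did not pass edgeR's test in either line (adjusted p = 1 in both). It stood at 3480 ± 290 CPM and 3518 ± 542 CPM in the gfap Cre-positive and Cre-negative groups. These gfap groups overlapped (log2 difference -0.02, SE 0.08). In the syn line the log2 difference was -0.14 (SE 0.08, 95% interval -0.30 to 0.02). Of the syn Cre-positive values, 5 fell under the Cre-negative minimum of 3227 CPM, and the highest, 3235 CPM, was just above it. The count of this gene thus leaned lower in the syn Cre-positive group, without fully separating the labelled genotypes in either line. Libraries of the syn line stood apart from those of the gfap line in reads outside genes, 7.52 to 11.09% of each file against 4.47 to 6.37%. In 6 syn libraries, Cre-positive 2, 5 and 6 and Cre-negative 3, 4 and 6, the choroid plexus transcript Ttr lay between 1971 and 5015 CPM, against at most 224 CPM in any other library. Markers of neurons (6 genes, summed 5071 to 7154 CPM) were present in every library, and the summed markers of the hypothalamus stayed under 3 CPM in every library.

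The start regions of the pair selected on values are shown because both genes were lower in the same group, with those of Sst and Cck, whose levels moved together across libraries. Each is a RefSeq window of 300 bases on GRCm38.p6, from 250 bases before to 50 after an annotated start, written along the gene's strand. Capitals mark the full cyclic-AMP response element TGACGTCA, the TATA box TATAAA, the GC box GGGCGG and the LIM homeodomain core TAATTA, searched on both strands.
Nxph1, chr6:8949769-8950068, plus strand: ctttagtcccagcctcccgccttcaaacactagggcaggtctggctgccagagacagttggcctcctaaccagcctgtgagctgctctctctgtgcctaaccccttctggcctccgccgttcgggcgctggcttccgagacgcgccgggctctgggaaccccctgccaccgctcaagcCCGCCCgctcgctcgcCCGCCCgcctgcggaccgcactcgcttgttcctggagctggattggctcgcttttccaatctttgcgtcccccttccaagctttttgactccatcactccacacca
Pthlh, chr6:147263964-147264263, minus strand: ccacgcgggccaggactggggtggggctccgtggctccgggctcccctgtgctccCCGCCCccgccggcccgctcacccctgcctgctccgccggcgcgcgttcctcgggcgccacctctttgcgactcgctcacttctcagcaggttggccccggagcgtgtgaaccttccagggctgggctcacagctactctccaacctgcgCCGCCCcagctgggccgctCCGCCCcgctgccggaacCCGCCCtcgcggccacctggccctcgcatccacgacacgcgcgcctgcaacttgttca
Sst, chr16:23890795-23891094, minus strand: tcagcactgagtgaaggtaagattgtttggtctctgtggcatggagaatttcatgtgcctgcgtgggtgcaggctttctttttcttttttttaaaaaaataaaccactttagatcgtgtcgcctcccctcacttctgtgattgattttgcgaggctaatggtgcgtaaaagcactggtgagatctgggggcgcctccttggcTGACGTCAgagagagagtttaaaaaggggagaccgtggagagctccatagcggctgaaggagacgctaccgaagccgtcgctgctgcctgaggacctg
Cck, chr9:121495645-121495944, minus strand: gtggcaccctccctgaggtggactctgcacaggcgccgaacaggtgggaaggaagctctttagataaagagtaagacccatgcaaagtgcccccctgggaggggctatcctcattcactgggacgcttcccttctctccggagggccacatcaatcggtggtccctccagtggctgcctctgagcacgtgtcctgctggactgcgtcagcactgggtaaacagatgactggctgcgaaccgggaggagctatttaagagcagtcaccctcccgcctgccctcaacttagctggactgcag

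The Nxph1 window held 2 GC boxes at 64.0% G and C, and the Pthlh window held 4 at 74.0%. A GC box occurred in 35.7% of all 32851 windows. The Sst window held 1 full response element, a match found in 1.8% of windows, and the Cck window held none of the 4 motifs. TATAAA occurred in 13.6% and TAATTA in 5.3% of windows. RefSeq windows were matched for 9 of the 10 members. The Vip window held 3 TATA matches and the Reln window 6 GC boxes, at 80.7% G and C.

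Compared per length, the members spanned more than 2 orders of magnitude, with somatostatin the most abundant and Pthlh the least. Over the 24 libraries Sst averaged 248 ± 34.5 CPM per kb of exon (SD, n = 24), Cck 127 ± 24.4 and Npy 60.3 ± 8.15. Pvalb averaged 30.4 ± 6.38 and Calb2 20.3 ± 5.37 CPM per kb. The peptide transcripts Sst, Cck and Npy thus led the order, followed by the calcium-binding proteins. The next were Nxph1 at 7.52 ± 1.46, Vip at 5.31 ± 0.803, Lhx6 at 4.27 ± 0.580, Reln at 3.27 ± 0.442 and Pthlh at 0.850 ± 0.285 CPM per kb. The library ranges of neighbours in this order did not overlap between Cck and Npy, Npy and Pvalb, or Reln and Pthlh, and overlapped for the other 6 neighbours. Pthlh and Calb2 varied most, with a highest library 4.03-fold and 3.76-fold above the lowest, and Reln least at 1.52-fold. Reln overlaps 2 antisense genes, and no source used here gives the strand setting of the counting.

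**Figure D1:**
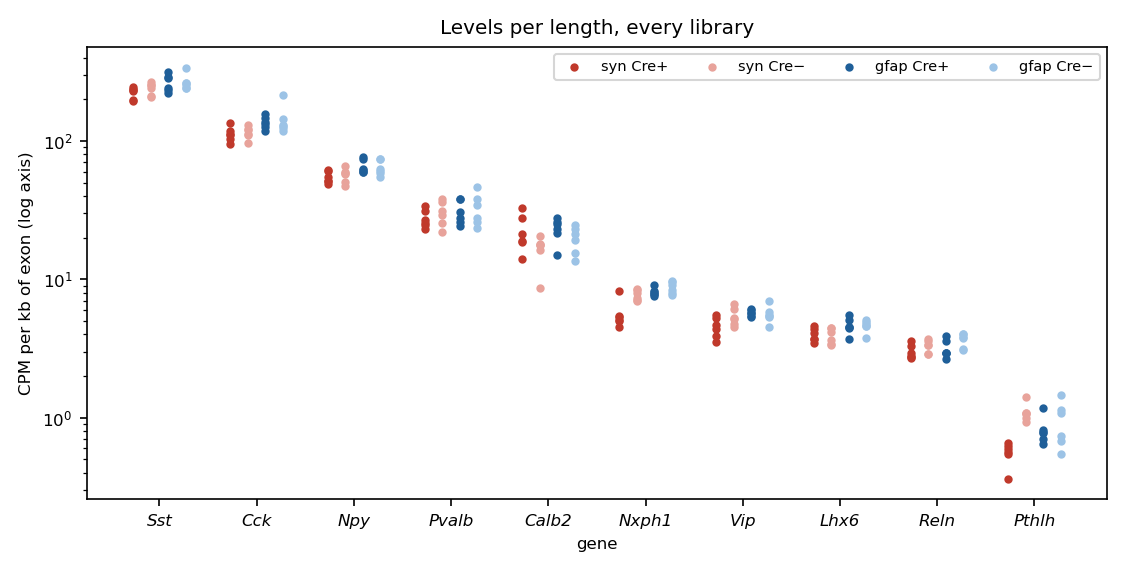
Level of each gene per length (CPM per kb of exon, log axis) in every library, genes ordered by mean and coloured by group. Each point is 1 library, and Sst lies near 248 and Pthlh near 0.850 CPM per kb on average.

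The question put to the syn line was how the brain transcriptome differs when EAAT2 loss is aimed at neurons. None of the 8 class markers passed edgeR's quasi-likelihood test there. Nxph1 and Pthlh, chosen for it, were the members with the largest decreases. Neurexophilin 1 transcripts had a lowest, median and highest value of 21.5, 24.8 and 38.9 CPM in the syn Cre-positive libraries against 32.8, 36.3 and 40.2 CPM in the syn Cre-negative ones. All but 1 Cre-positive library lay below the lowest Cre-negative library, the exception being Cre-positive 5 at 38.9 CPM. The group means were 26.6 ± 6.20 and 36.5 ± 3.24 CPM (SD, n = 6 each), a log2 difference of -0.46, and -0.59 with Cre-positive 5 left out. Pthlh, which encodes parathyroid hormone-related protein, ran 0.586, 0.931 and 1.07 CPM in the Cre-positive libraries (lowest, median, highest) against 1.51, 1.74 and 2.28 CPM in the Cre-negative ones. Here the groups did not overlap, which 0.203% of all genes tested also showed, and nothing is read from this since the gene was chosen on these libraries. Means of 0.901 ± 0.168 and 1.77 ± 0.268 CPM gave a log2 difference of -0.96. Cre-positive 5 thus held the highest Nxph1 and the lowest Pthlh value of its group, and without it the Pthlh difference was -0.87. This library also stood apart in summed markers of brain regions: thalamus at 121 CPM against 31.9 to 43.4 CPM in the other libraries of its group, cerebellum at 99.2 against 14.3 to 30.0 CPM, and striatum at 101 against 51.1 to 69.7 CPM. Its part in these values was not tested beyond leaving it out. With the 6 syn libraries rich in choroid plexus RNA left out, the log2 differences were -0.51 for Nxph1 and -0.87 for Pthlh.

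Among the 8 class markers 0 passed at an adjusted p under 0.05 in the syn line, with edgeR, DESeq2 and limma-voom alike, and 1 had an unadjusted p under 0.05. Over all genes tested edgeR called 0.00507%, a single gene, so a count of 0 is near the background. Of the 8, 6 had a negative and 2 a positive log2 difference, with a median of -0.08 beside -0.003 over all genes. Of all genes 51.4% had a negative value. The gene under 0.05 was Vip, the peptide of disinhibitory interneurons. It ran 12.01, 15.4 and 18.8 CPM (lowest, median, highest) in Cre-positive and 15.4, 17.8 and 22.5 CPM in Cre-negative libraries, and the groups overlapped. The means of 15.4 ± 2.61 and 18.4 ± 2.73 CPM differed by -0.25 on the log2 scale (SE 0.10, 95% interval -0.47 to -0.04, adjusted p = 0.978 with edgeR). Its lowest 3 Cre-positive values, 14.9, 13.1 and 12.01 CPM, came from the 3 libraries of that group with high Ttr. In the Cre-negative group the libraries with high Ttr ran from 16.3 to 22.5 CPM and the others from 15.4 to 20.8 CPM. Without the 6 syn libraries with high Ttr the difference was -0.03. The part of choroid plexus RNA in this value was not tested further, and with a choroid plexus score as covariate it was -0.27.

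Calretinin, the calcium-binding protein encoded by Calb2, had the widest spread of the class markers. Its values were 24.5, 34.9 and 56.7 CPM in syn Cre-positive and 15.1, 30.8 and 35.6 CPM in syn Cre-negative libraries, for a log2 difference of 0.43 (SE 0.21, 95% interval -0.02 to 0.87, adjusted p = 1 with edgeR). Cre-positive 2, 5 and 6, the libraries of that group with high Ttr, lay above every Cre-negative library. Cre-positive 5, apart in region markers, was highest, and the difference was 0.29 without it. In the Cre-negative group the libraries with high Ttr, 3, 4 and 6, had 31.4, 31.0 and 28.3 CPM. The others, 1, 2 and 5, had 30.6, 15.1 and 35.6 CPM, and Cre-negative 2 thus lay far below the rest. Without the 6 libraries rich in choroid plexus RNA the difference was 0.15. The other 6 class markers lay closer to 0. Pvalb, the calcium buffer of fast-spiking cells, differed by -0.15 (SE 0.17), from 28.6 ± 4.35 against 31.7 ± 6.46 CPM. Sst, the peptide of dendrite-targeting cells, differed by -0.11 (SE 0.09), from 161 ± 15.8 against 173 ± 17.4 CPM. Both pairs of groups overlapped. Reln, the secreted glycoprotein that guides neuronal layering, differed by -0.13, Npy by -0.05, Cck by -0.04 and the transcription factor Lhx6 by 0.04, each within overlapping ranges. Without the 6 libraries rich in choroid plexus RNA, Reln stood at 0.05. The 95% intervals of these 6 genes lay between -0.50 and 0.22 on the log2 scale.

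**Figure D2:**
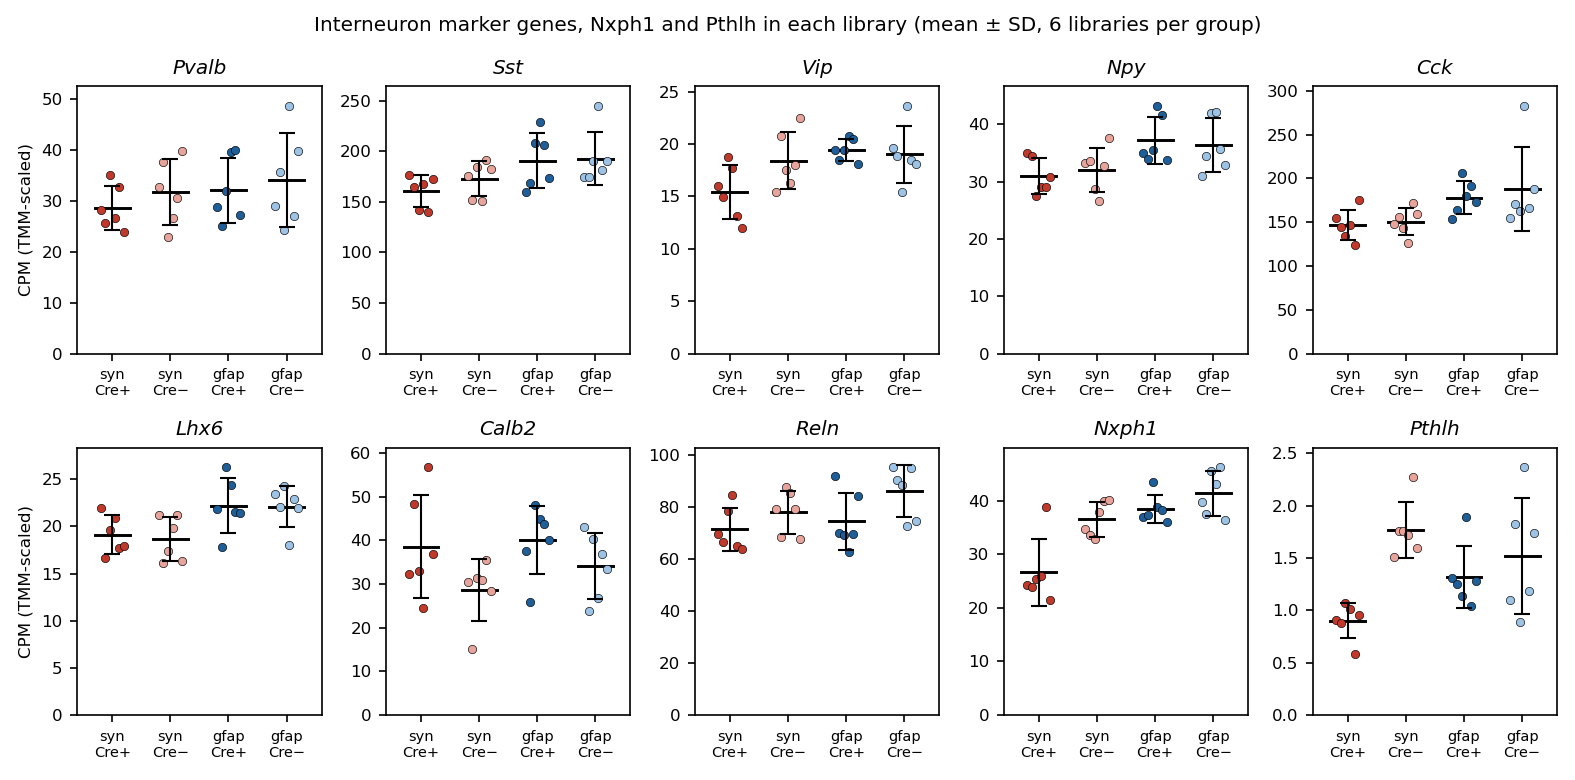
TMM-scaled CPM of each gene in every library of the 4 groups (points), with mean and SD (bars; n = 6 per group) and axes from 0. The Pthlh points of the syn groups do not overlap, and syn Cre-positive 5 is the single high Nxph1 point of its group at 38.9 CPM.

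The gfap line puts the same question to loss aimed at astrocytes, the Cre-positive animals being heterozygous by their label. All 10 genes were tested there, since the stated ground for choosing Nxph1 and Pthlh was their low values in the syn Cre-positive group. Earlier results of these data were known when the genes were chosen, so these tests may not be fully independent of the choice. In this line 0 of 10 passed with edgeR, DESeq2 or limma-voom, 1 had an unadjusted p under 0.05, and edgeR called 0.0101% of all genes. Nxph1 ran 36.0, 37.8 and 43.5 CPM (lowest, median, highest) in Cre-positive and 36.3, 41.4 and 46.2 CPM in Cre-negative libraries. The groups overlapped almost throughout, and the log2 difference was -0.10 (SE 0.10, 95% interval -0.31 to 0.10, adjusted p = 1 with edgeR). Pthlh ran 1.04, 1.27 and 1.89 CPM in Cre-positive and 0.887, 1.46 and 2.37 CPM in Cre-negative libraries, a log2 difference of -0.20 (SE 0.20, 95% interval -0.61 to 0.21, adjusted p = 1). Its Cre-negative group spanned the whole Cre-positive range, and without gfap Cre-negative 4 the difference was -0.03. The gene under 0.05 was Reln, at 62.8, 69.9 and 91.9 CPM in Cre-positive and 72.8, 89.6 and 95.4 CPM in Cre-negative libraries. It differed by -0.21 (SE 0.09, 95% interval -0.40 to -0.01, adjusted p = 1 with edgeR). No member had separate ranges between the gfap groups, which 0.198% of all genes had.

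The remaining class markers of the gfap line had values of -0.09 (Pvalb), -0.01 (Sst), 0.03 (Vip), 0.03 (Npy), -0.08 (Cck), 0.01 (Lhx6) and 0.23 (Calb2) on the log2 scale. Calb2 had the widest 95% interval of these, -0.21 to 0.68. Single libraries decided the sign of several. Without gfap Cre-negative 4, Pvalb stood at 0.04, Sst at 0.06, Cck at 0.07 and Lhx6 at -0.05, and without gfap Cre-negative 3 Vip stood at -0.03.

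**Figure D3:**
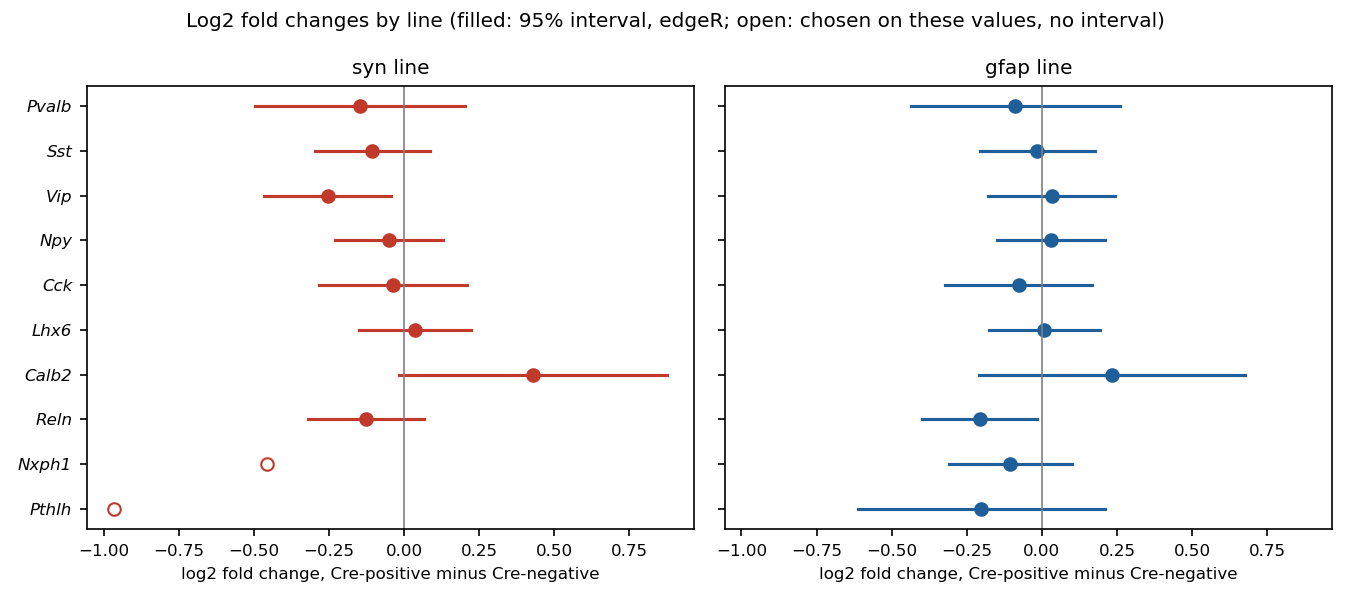
Log2 difference of Cre-positive minus Cre-negative libraries for each gene in the syn line (left) and gfap line (right), with 95% intervals from edgeR. Open circles mark Nxph1 at -0.46 and Pthlh at -0.96, which were selected on these values and carry no interval. All tested genes lie between -0.25 and 0.43.

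The difference between the lines was tested as the syn difference minus the gfap difference. None of the 8 class markers passed with edgeR, DESeq2 or limma-voom, 0 had an unadjusted p under 0.05, and 0.0101% of all genes were called. Vip was the nearest, with a difference between the lines of -0.29 (SE 0.15, 95% interval -0.59 to 0.01). Side by side, Nxph1 had -0.46 in the syn and -0.10 in the gfap line, and Pthlh -0.96 and -0.20. Because both were selected on the syn values, these gaps of -0.35 and -0.76 carry no test.

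The other genes of these pathways, 76 in 8 lists, of which 71 passed the filter on low counts, gave no call in either line or in their difference. With edgeR, DESeq2 and limma-voom 0 of 71 passed in the syn line, in the gfap line and in the difference, and 6, 1 and 3 had an unadjusted p under 0.05. Gad1, which makes most of the brain's GABA, stood at 407 against 415 CPM in the syn groups (log2 difference -0.03, SE 0.05) and 468 against 472 CPM in the gfap groups (-0.01, SE 0.05). Gad2 differed by 0.02 and 0.03 in the same comparisons, and the vesicular GABA carrier Slc32a1 by -0.002 and -0.03. Each of these differences was smaller than its SE. Among the unadjusted values in the syn line, Lamp5, a marker of neurogliaform cells, had -0.38 (SE 0.13), and the cholecystokinin receptor Cckbr -0.67 (SE 0.22), with adjusted p of 0.781 and 0.754. In the gfap groups Lamp5 stood at 38.7 against 38.6 CPM and Cckbr at 8.76 against 11.4 CPM.

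Partners of the pair selected on values were measured too. The receptor Pth1r stood at 5.50 against 5.32 CPM in the syn groups (log2 difference 0.05, SE 0.17), and Pth2r, a related receptor, at 0.456 against 0.850 CPM (-0.90, SE 0.41, adjusted p = 1). The neurexophilin relatives Nxph2, Nxph3 and Nxph4 differed by -0.27, -0.18 and -0.18 in the syn line, each with adjusted p = 1. Nrxn3, which encodes a neurexin, differed by 0.01 in the syn line. Lower Cre-positive means were not particular to the syn line. In the gfap groups Pth2r stood at 0.302 against 0.565 CPM, Nxph3 at 21.3 against 26.6 CPM and Nxph4 at 0.717 against 1.12 CPM. Pth1r stood there at 6.28 against 6.58 CPM and Nrxn3 at 230 against 236 CPM, while Nxph2 went the other way, at 1.76 against 1.66 CPM. Nrxn2 was counted at 0 to 3 reads and did not pass the filter, nor did Pth, Pth2, Cckar or Lhx8.

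More members passed between the lines than between the genotypes. Against the gfap Cre-negative libraries, all 8 class markers had a negative log2 value in the syn Cre-negative libraries (median -0.17, beside -0.02 over all genes). A negative value was found for 52.7% of all genes. Of the 8 class markers, 2 (25%) passed as lower with edgeR. Over all genes edgeR called 31.2% in this comparison, 16.6% as lower and 14.6% as higher, and with 8 genes the share of 25% rests on 2 calls. Lhx6 was lower at 18.7 ± 2.36 CPM in the syn than at 22.1 ± 2.19 CPM in the gfap Cre-negative libraries (log2 difference -0.24, SE 0.09, adjusted p = 0.0411). Cck was lower at 151 ± 15.4 against 188 ± 48.0 CPM (-0.32, SE 0.12, adjusted p = 0.0457). The values overlapped for both. Over 33 alternative settings Cck passed in 11 and Lhx6 in 16, DESeq2 and limma-voom each called 1 member, and without gfap Cre-negative 4, the library at 283 CPM, Cck stood at -0.15 with an adjusted p of 0.173. An unadjusted p under 0.05 was found for 3 of the 8. The count stayed at 2 without syn Cre-negative 5, syn Cre-positive 3 or 5, or gfap Cre-positive 1 or 3, and was 1 or 0 without any other single library. Nxph1 had a value of -0.18 and Pthlh 0.22 in this comparison, given as a description.

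Between the Cre-positive groups, 3 of 8 class markers (37.5%) passed as lower in the syn line, and all 8 had a negative value (median -0.23, beside -0.02 over all genes). A negative value was found for 53.4% of all genes. Over all genes 27.5% were called, 14.7% as lower and 12.8% as higher. Vip was lower at 15.4 ± 2.61 against 19.4 ± 1.06 CPM (log2 difference -0.33, SE 0.10, adjusted p = 0.0187 with edgeR), with 5 of 6 syn libraries below the lowest gfap library. Npy was lower at 31.0 ± 3.11 against 37.2 ± 4.14 CPM (-0.26, SE 0.09, adjusted p = 0.0267). Sst was lower at 161 ± 15.8 against 191 ± 27.2 CPM (-0.25, SE 0.09, adjusted p = 0.0475). The groups overlapped for each of these peptides. Over 33 alternative settings Vip passed in 29, Npy in 24 and Sst in 11. Cck and Lhx6, called between the Cre-negative groups, had adjusted p of 0.0856 and 0.0772 here. DESeq2 called 2 and limma-voom 4 of the 8, and 5 had an unadjusted p under 0.05. Without the 6 syn libraries rich in choroid plexus RNA none was called: Vip stood at -0.12, while Npy at -0.26 and Sst at -0.21 stayed near their values with all libraries, with adjusted p of 0.0982 and 0.268. Leaving out syn Cre-positive 6 or gfap Cre-positive 5 also brought the count to 0, and leaving out syn Cre-positive 3, 4 or 5 or gfap Cre-positive 4 brought it to 1. Nxph1 stood at -0.53 and Pthlh at -0.54, as a description. No member had separate ranges between the lines, whereas 11.0% of all genes had them between the Cre-negative and 13.3% between the Cre-positive groups.

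The other interneuron genes were read the same way. Between the Cre-negative groups 20 of 71 genes (28.2%) passed as lower and 0 as higher with edgeR, and between the Cre-positive groups 14 (19.7%) passed as lower and 0 as higher. Over all genes the shares called lower and higher were 16.6% and 14.6% in the first comparison and 14.7% and 12.8% in the second. DESeq2 called 16 lower and 2 higher in the first comparison and 11 lower and 0 higher in the second, and limma-voom 20 and 2, then 14 and 0. The edgeR medians were -0.10 and -0.11, beside -0.02 over all genes in both. Among genes of GABAergic identity 3 of 10 passed between the Cre-negative groups, Gad1 among them at -0.19 (adjusted p = 0.00587 with edgeR). Between the Cre-positive groups 2 of 10 passed, with Gad1 at -0.20.

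Genes of the class lists are given beside the 16.6% and 14.7% of all genes called lower in the 2 comparisons. Several of these small counts lie near those shares, and nothing is read from them about a single class. In the medial ganglionic eminence list 2 of 9 passed between the Cre-negative groups, Etv1 at -0.32 and the synaptic adhesion gene Elfn1 at -0.27, and none between the Cre-positive groups, where 1 of 9 had an unadjusted p under 0.05. The potassium channel Kcnc2 of fast-spiking cells was the 1 of 8 that passed in its list, at -0.24 and -0.25 in the 2 comparisons. In the somatostatin list 3 of 7 passed as lower between the Cre-negative groups, among them calbindin (Calb1) at -0.30 and the nicotinic subunit Chrna2 at -0.53. The list was mixed, with 4 negative and 3 positive values in each comparison. Cort, Chodl and Crhbp had higher syn Cre-negative means, at 5.36, 0.244 and 31.2 CPM against 4.65, 0.163 and 30.1 CPM. Chrna2 stood at 1.04 CPM in the syn against 0.997 CPM in the gfap Cre-positive libraries. Between the Cre-positive groups 1 of 7 passed, Calb1 at -0.34. The caudal ganglionic eminence list had 6 of 16 and 4 of 16 lower. Ndnf, a marker of neurogliaform cells, had -0.57 and -0.47, the receptor tyrosine kinase Kit -0.43 and -0.28, the cannabinoid receptor Cnr1 -0.41 and -0.34, and the serotonin receptor Htr3a -0.39 and -0.43. Of the 16 genes, 4 had a positive value between the Cre-negative groups and 2 between the Cre-positive groups. Lamp5, also a neurogliaform marker, stood at 46.1 CPM in the syn against 38.6 CPM in the gfap Cre-negative libraries. Between the Cre-positive groups it stood at 35.4 against 38.7 CPM. Crh, Sp8 and Adarb2 also had higher syn Cre-negative means, at 1.22, 1.54 and 30.9 CPM against 0.915, 1.02 and 30.6 CPM.

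Receptors for the member peptides and reelin gave 3 of 14 and 4 of 14 lower, beside 16.6% and 14.7% of all genes. Of the 14, 5 and 4 had a positive value. The somatostatin receptor Sstr3 had -0.40 between the Cre-negative and -0.38 between the Cre-positive groups, and the neuropeptide Y receptor Npy2r -0.51 and -0.41. Dab1, the adaptor that carries the reelin signal inside the cell, had -0.13 and -0.20, and Npy1r passed between the Cre-positive groups, at -0.18. Of 5 neurexophilin and neurexin genes 2 passed as lower in each comparison, Nrxn3 among them at -0.22 and -0.17, and 0 of 2 parathyroid hormone receptors passed in either, with 0 unadjusted.

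Other cell types moved with the line as well. General neuronal markers passed as lower in 6 of 6 cases between the Cre-negative groups (median -0.22), with summed levels of 5071 to 5950 CPM in the syn and 6373 to 6884 CPM in the gfap libraries. Markers of excitatory neurons passed as lower in 3 of 8 cases there (median -0.19). Oligodendrocyte markers passed as higher in 5 of 6 cases (median 0.36; 4986 to 7682 against 3803 to 4836 CPM). Choroid plexus markers passed as higher in 8 of 8 cases (median 3.73), with summed levels of 108 to 5369 against 55.0 to 207 CPM. Hippocampal markers passed as lower in 2 of 4 cases (235 to 296 CPM in the syn against 320 to 442 CPM in the gfap libraries, without overlap), and endothelial markers in 4 of 6. Between the Cre-positive groups general neuronal markers passed as lower in 4 of 6 cases (median -0.21) and excitatory neuron markers in 5 of 8 (median -0.25). In that comparison 5 of 6 endothelial and 2 of 4 hippocampal markers also passed as lower, and 6 of 6 oligodendrocyte and 6 of 8 choroid plexus markers as higher. Higher calls were also found for 3 of 5 cerebellar and 2 of 4 thalamic markers, whose highest sums, 99.2 and 121 CPM, were those of syn Cre-positive 5. No neuronal, oligodendrocyte or choroid plexus marker was at 0 in any library. Their part in the lower interneuron values was not tested, except that with the choroid plexus score as covariate 0 of 8 class markers passed between the Cre-negative groups and 1 between the Cre-positive groups. The log2 differences under that covariate were -0.30 for Cck and -0.16 for Lhx6 between the Cre-negative groups, and -0.27 for Vip, -0.27 for Npy and -0.26 for Sst between the Cre-positive groups. Line and library set differ together, so that their shares cannot be told apart.

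By group mean, 8 of the 10 genes were lowest in the syn Cre-positive group, where Nxph1 and Pthlh were chosen to be low. Both are in that count. The share of all genes lowest in this group was not measured, so the count is not read as particular to these genes. Lhx6 and Calb2 were lowest in the syn Cre-negative group. The highest mean lay in the gfap Cre-negative group for 5 genes, in the gfap Cre-positive group for 4 and in the syn Cre-negative group for Pthlh. The ranges of neighbouring groups in these orders overlapped for all 10 genes.

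The genes also varied together inside groups. On log2 CPM centred on each group's mean, 4 of 45 pairs passed a two-sided permutation test of Pearson's r (100000 draws within groups, Benjamini-Hochberg over the 45 pairs). The share of passing pairs among all genes was not measured, so this count is not read as particular to these genes. The part of differences in library make-up in these correlations was not tested. Somatostatin and cholecystokinin showed the highest correlation, with Pearson's r = 0.79 (adjusted permutation p = 0.0036) and Spearman's rho = 0.79 (adjusted permutation p = 0.00135) over 24 libraries. It held at 0.73 in the 12 syn and 0.83 in the 12 gfap libraries, and r was 0.78 without the 2 libraries farthest from the median of Sst. Sst and Npy, peptides that share many cells, followed at r = 0.65 and rho = 0.60 (adjusted permutation p = 0.0261 and 0.0442; 0.53 without the 2 farthest). Pvalb and Vip, which mark separate cell classes, gave r = 0.62 and rho = 0.66 (adjusted permutation p = 0.0261 and 0.0207; 0.48 without the 2 farthest). Reelin ran opposite to cholecystokinin, with r = -0.57 and rho = -0.59 (adjusted permutation p = 0.0414 and 0.0442; -0.48 without the 2 farthest, -0.37 in the syn and -0.69 in the gfap libraries). By Pearson's r, Reln with Pvalb and Reln with Npy each had -0.58 and did not pass (adjusted permutation p = 0.0518). By Spearman's rho, Reln with Npy had -0.59 and passed (adjusted permutation p = 0.0442), and Reln with Pvalb had -0.58 and did not (0.0533). Npy with Cck passed by rho at 0.58 (adjusted permutation p = 0.0442) and not by r at 0.52 (0.0826). Pairs with Nxph1 or Pthlh are among the 45, but they are given as a description, since both genes were selected on the syn libraries. Nxph1 with Pthlh gave r = -0.40, with -0.57 in the syn and -0.36 in the gfap libraries.

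**Figure D4:**
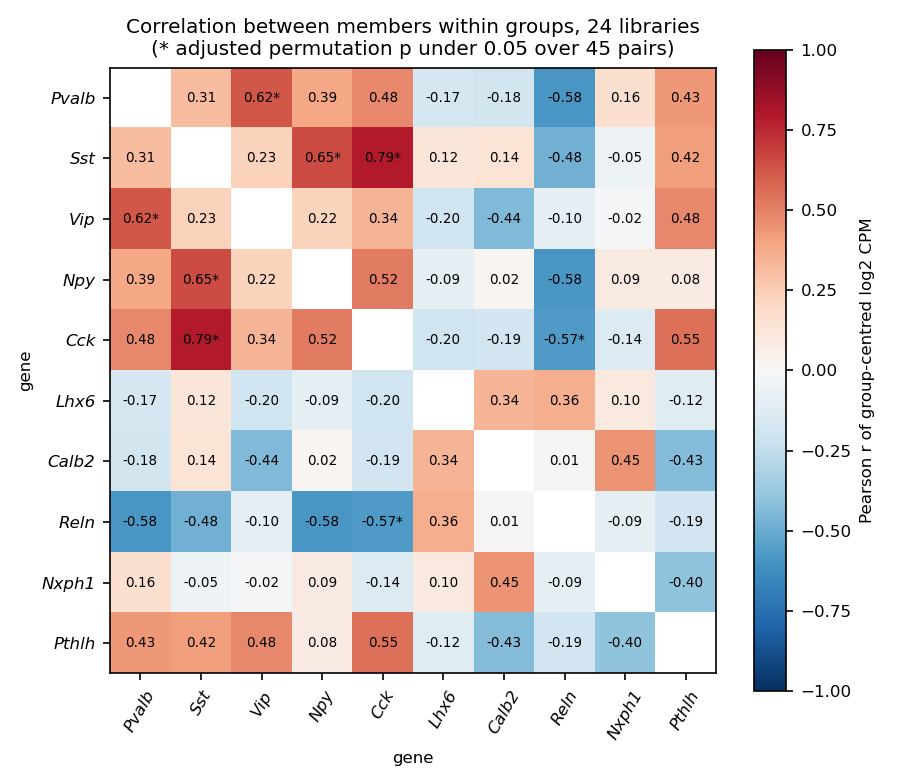
Pearson correlation between each pair of genes over 24 libraries, on log2 CPM with group means removed, with an asterisk where the adjusted permutation p is under 0.05. Of 45 pairs, 4 carry an asterisk, of which Sst with Cck is the highest at 0.79 and Cck with Reln is negative at -0.57. Pairs with Nxph1 or Pthlh are shown as a description.

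**Figure D5:**
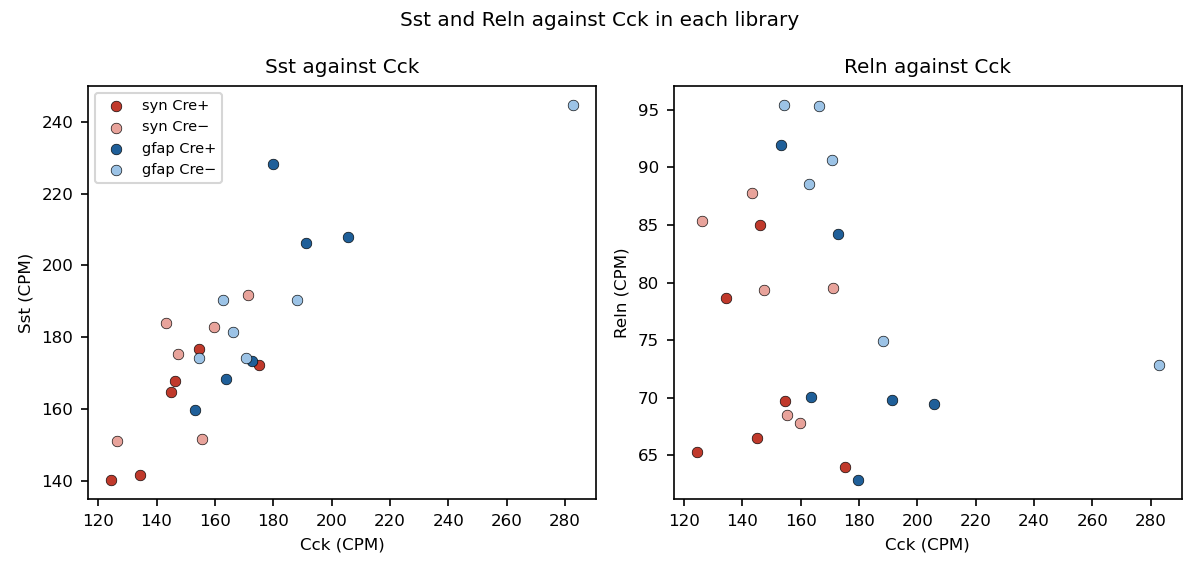
Sst (left) and Reln (right) plotted against Cck, all in CPM, for each of 24 libraries coloured by group. Sst rises with Cck, the gfap Cre-negative 4 library standing at 283 CPM of Cck and 245 CPM of Sst, and Reln is lower at high Cck.

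The genes whose group-centred levels were most like those of Nxph1 and Pthlh are named as a description over the same 24 libraries. For Nxph1, among 12380 genes, they were Lhfpl3 (r = 0.80), the transcription factor Sox1 (0.77) and Herpud2 (0.76). Without the 2 libraries farthest from the median these fell to 0.61, 0.36 and 0.58, and in the gfap libraries they were 0.51, 0.06 and 0.65. The likeness of Sox1 thus rested on few libraries. For Pthlh, among 12381 genes, they were Pstk (r = 0.78), an enzyme of selenocysteine tRNA synthesis, the RNA polymerase III subunit Polr3gl (0.76) and the mitochondrial ribosome subunit Mrps9 (0.76). Without the 2 farthest libraries these fell to 0.61, 0.65 and 0.63, and in the 12 gfap libraries they were 0.77, 0.75 and 0.76. The points share libraries and depth, and Pthlh rests on 28 to 120 counts per library.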

How the data were processed

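Whole-number counts per gene, not normalized, were deposited by the authors, 1 file per library. HISAT2, HTSeq 0.6.0, DESeq2 1.6.3 and mm10 are named per the submitters' processing notes, without roles, and no source used here states the strand setting or the annotation release. Per the labels' protocols, RNA came from a lipid tissue kit and was sequenced on an Illumina HiSeq. Symbols and positions come from GENCODE M21 (GRCm38). The 5 summary lines that name no gene were left out.

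Counts were filtered with filterByExpr, scaled by TMM and fitted with edgeR 4.0.16 (R 4.3.3), robust quasi-likelihood, in 1 model of 4 groups over 24 libraries. Benjamini-Hochberg adjusted p values under 0.05 over 19726 genes were called. Log2 CPM used a prior count of 2. Alternatives covered scaling, filters, DESeq2 1.42.0, limma-voom (limma 3.58.1), each line alone and libraries left out. Within groups, 15 pairs of libraries per group differed by more than counting noise (chi-square per gene 6.648 to 134.2), so none was a copy. Replicate numbers follow accession order and pair nothing. Titles carry a first number that some libraries of 1 group share and that no libraries of different groups share. Its meaning is not stated, so libraries of a group may share a source, and p values treat them as independent. The fit was tested on simulated data.

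Members and lists were chosen with earlier results of these data known. Named genes are the 10 members, up to 4 called genes with the smallest p per list and comparison, and the 3 genes most like Nxph1 and Pthlh; Lamp5, Cckbr, Gad2, Slc32a1, Pth1r, Pth2r, the Nxph relatives and Ttr were named outside that rule after their values were seen. A few called genes that this rule takes are left out of the text.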

Additional observations from a re-analysis of the deposited data

Results flagged for a closer look

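Values were checked in 40 groups of 6 (10 genes, 4 groups) for a library far from the rest, with a gap to its neighbour over 0.625 of the group's range. This marked 7 values, where chance marks about 1 in 20 groups. The library gfap Cre-negative 4 carried 3 of them: the highest Cck at 283 CPM, the highest Sst at 245 CPM and the lowest Lhx6 at 18.02 CPM of its group. Nxph1 was highest in syn Cre-positive 5, at 38.9 CPM. Calb2 was lowest in syn Cre-negative 2, at 15.1 CPM. Pthlh was highest in gfap Cre-positive 4, at 1.89 CPM, and in syn Cre-negative 5, at 2.28 CPM. Syn Cre-negative 5 also had an ambiguous read share of 7.46%.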

How the results depend on the processing

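No tested member passed in the syn line, the gfap line or their difference under any of the 34, 34 and 33 settings. The lower calls between the lines moved: the count of class markers called was 0 between the Cre-negative groups with RLE scaling, upper-quartile scaling, a filter of at least 1 CPM in 6 libraries, the choroid plexus covariate, or without the 6 syn libraries rich in choroid plexus RNA. It was 1 with DESeq2, limma-voom, no filter, or without 3 Cre-negative libraries that stand apart (syn 2 and 5, gfap 4). Leaving out 1 library gave 0 to 2. Between the Cre-positive groups it was 0 without the 6 syn libraries, 1 with upper-quartile scaling, the 1 CPM filter or the covariate, and 0 to 4 with 1 library left out. The 2 settings that leave out several libraries were chosen after seeing the data. The cause of these moves was not tested. No called value changed sign. Over the members and settings, 74 values lost a call and 6 gained one. No paired analysis was possible because replicate numbers follow accession order, and the first number in the titles, whose meaning is not stated, is shared within groups and not across them. Pthlh, at 28 to 120 counts per library, is the member where depth limits precision most.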
